A study of Mus musculus with 6 samples.

Results

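The genes that split mitochondria, fuse their inner membrane and drive the production of new mitochondria were examined in articular cartilage from mice carrying a gene knockout (KO) and from wildtype mice. These were the 10 rows of the deposited gene table, which held 34709 genes, whose name matched Opa1, Oma1, Yme1l1, Dnm1l, Fis1, Mff, Mief1, Tfam, Nrf1 or Ppargc1b. The genes were matched by name, although they were chosen with earlier results of these data known. All 10 were found and passed the filter on low levels. The tissue came from 18-month-old male mice (per the study's methods and the column names), with 3 libraries labelled KO and 3 labelled WT (wildtype), and the labels list no treatment. The KO strain is listed as C57BL/6J, and neither the labels nor the methods say whether animals were pooled.

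Mitochondria form a network that is continually divided and rejoined. The dynamin-like GTPase made from Dnm1l is recruited to the outer membrane by the adaptors Mff and Mief1, with Fis1 as a further outer-membrane protein, and it constricts the organelle. Opa1 encodes the dynamin of the inner membrane, which fuses inner membranes and shapes cristae, and the proteases encoded by Oma1 and Yme1l1 cut it. Mitochondrial biogenesis depends on Nrf1, a transcription factor for nuclear genes of mitochondrial proteins, on the coactivator Ppargc1b, and on Tfam, which packages mitochondrial DNA and activates its transcription.

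Total counts ranged from 52268311 to 63331135 per library. KO replicates 2 and 3 differed by 5.77 times the variation of Poisson sampling, against 23.8 to 85.0 times for the other 14 pairs of libraries. These multiples were taken on the deposited counts, which behave as estimates, so they compare pairs and do not measure sampling variation itself. KO replicates 2 and 3 were therefore averaged and counted as 1 sample, although the study describes its samples as independent. This left 2 KO and 3 wildtype samples. The library labelled KO replicate 1 lay at 13.5 on the first principal component, beside the wildtype libraries (16.1 to 20.2) and away from KO replicates 2 and 3 (-33.9 and -33.8). The defining cartilage transcripts Col2a1 and Acan were present at 12.4 to 21.3 and 13.2 to 22.8 FPKM (fragments scaled to transcript length in kilobases and to library size), but blood and marrow transcripts were far more abundant. Summed over the 10 chondrocyte markers the level was 633 to 1436 FPKM in KO libraries and 608 to 829.7 FPKM in wildtype libraries. The 8 erythroid markers summed to 24918 to 60653 FPKM in KO and 71653 to 108478 FPKM in wildtype, and the 8 neutrophil markers to 48591 to 60154 FPKM in KO and 25634 to 41996 FPKM in wildtype. The 7 B cell markers, at 90.9 to 138 FPKM in KO and 281 to 312 FPKM in wildtype, and the 6 adipocyte markers, at 20.0 to 52.6 FPKM in KO and 73.9 to 208 FPKM in wildtype, also did not overlap between the groups. The 8 skeletal muscle markers summed to 3.77 to 192 FPKM in KO and 38.2 to 346 FPKM in wildtype, and the 8 osteoblast and osteocyte markers to 961 to 1033 FPKM in KO and 724 to 2013 FPKM in wildtype. The sums of these last 2 lists and of the chondrocyte list overlapped between the groups and those of the other 4 lists did not, 0 of their genes were at 0 in all libraries, and their part in the differences below was not tested. In such bulk samples, fewer cells of a type and less RNA per cell cannot be told apart.

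The RefSeq promoter windows of the genes were inspected first, since Nrf1 is both a member and a regulator of nuclear genes for mitochondria. Windows of 300 bases (250 before and 50 after the start of a transcript) were found for 9 of the 10 genes, 13 windows in all, and 5 motifs were searched on both strands. The NRF1 motif, GCGCA, 1 base of any kind and GCGC, in that order, was found in the windows of Oma1 and Opa1, 2 of 13 windows, against 4.6% of all 32851 windows. The ETS motif CCGGAAGT, which GABP can bind, was found in 4 of 13 windows (those of Tfam and Mief1 and both windows of Fis1), against 3.89% of all windows. The CREB motif TGACGTCA (1.79% of all windows), the ERR motif TCAAGGTCA (0.423%) and the YY1 motif, AAGATGG directly followed by CGGC (0.633%), were not found in these windows. All matches are letters in a window, and no binding was measured. The RefSeq start of the second Fis1 window lies 8802 bases downstream of the gene start in the deposited table. The windows with an ETS match held 54.7% to 70.3% G and C, against a median of 52.7% over all windows. Shares among windows of like content were not compared. The 250 bases before the RefSeq start (GRCm38.p6, written 5′ to 3′ on the strand of the gene) are given for Tfam and Oma1, the only members whose KO and wildtype levels did not overlap, and for Opa1, the substrate of Oma1. Capitals mark the ETS motif in Tfam and the NRF1 motif in Oma1 and Opa1.
Tfam, chr10:71238045-71238294, minus strand: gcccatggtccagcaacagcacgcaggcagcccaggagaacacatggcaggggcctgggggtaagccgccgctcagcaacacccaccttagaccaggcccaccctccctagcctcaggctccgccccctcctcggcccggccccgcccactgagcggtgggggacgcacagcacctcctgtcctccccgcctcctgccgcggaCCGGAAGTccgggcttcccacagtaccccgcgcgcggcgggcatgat
Oma1, chr4:103313596-103313845, plus strand: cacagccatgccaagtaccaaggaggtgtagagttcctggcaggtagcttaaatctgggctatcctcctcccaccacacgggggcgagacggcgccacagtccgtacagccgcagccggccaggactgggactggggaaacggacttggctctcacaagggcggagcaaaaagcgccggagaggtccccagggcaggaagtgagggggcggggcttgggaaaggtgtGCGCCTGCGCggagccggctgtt
Opa1, chr16:29579084-29579333, plus strand: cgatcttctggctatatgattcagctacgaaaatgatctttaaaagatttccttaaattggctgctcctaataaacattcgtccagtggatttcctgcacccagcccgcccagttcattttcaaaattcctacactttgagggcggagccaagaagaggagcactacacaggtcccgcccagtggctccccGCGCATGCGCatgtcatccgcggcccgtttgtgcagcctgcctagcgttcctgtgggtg
The capitals in Tfam start 47 bases before the RefSeq start, those in Oma1 23 bases and those in Opa1 59 bases before it. In Oma1 the match lies on the opposite strand, and in Opa1 the motif reads the same on both strands. The deposited table places the start of Tfam 236 bases and that of Oma1 34 bases further upstream, while the start of Opa1 was the same in both.

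Levels were compared per length across the 6 libraries. Fis1 was by far the most abundant member, at 69.1 ± 9.74 FPKM (SD, n = 6 libraries), and Ppargc1b the least, at 0.527 ± 0.0783 FPKM, which was 131 times lower. Only 3.82% of the 15373 tested genes had a higher mean level than Fis1, and the median tested gene was at 4.90 FPKM. Ppargc1b was exceeded by 99.0% of the tested genes. Only genes averaging 0.5 FPKM or more were tested, and Ppargc1b lay just above that limit. Its place among them was therefore set largely by the filter, and the untested genes of the table lay lower still. Below Fis1 came Yme1l1 (14.4 FPKM), Dnm1l (12.997 FPKM), Mff (9.83 FPKM), Oma1 (7.49 FPKM), Tfam (7.43 FPKM), Opa1 (7.03 FPKM), Nrf1 (5.18 FPKM) and Mief1 (3.60 FPKM). Among the 9 neighbouring pairs in this order, the ranges over libraries overlapped in 4: Yme1l1 with Dnm1l, Dnm1l with Mff, Oma1 with Tfam, and Tfam with Opa1. Yme1l1 was nevertheless above Dnm1l in 6 of 6 libraries and Dnm1l above Mff in 5 of 6, while Oma1 was above Tfam in 3 of 6, namely the KO libraries. FPKM of a gene sums over its transcripts, of which the table lists 8 for Opa1, 7 for Dnm1l and 15 for Mff, so splice forms are not resolved.

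**Figure D1:**
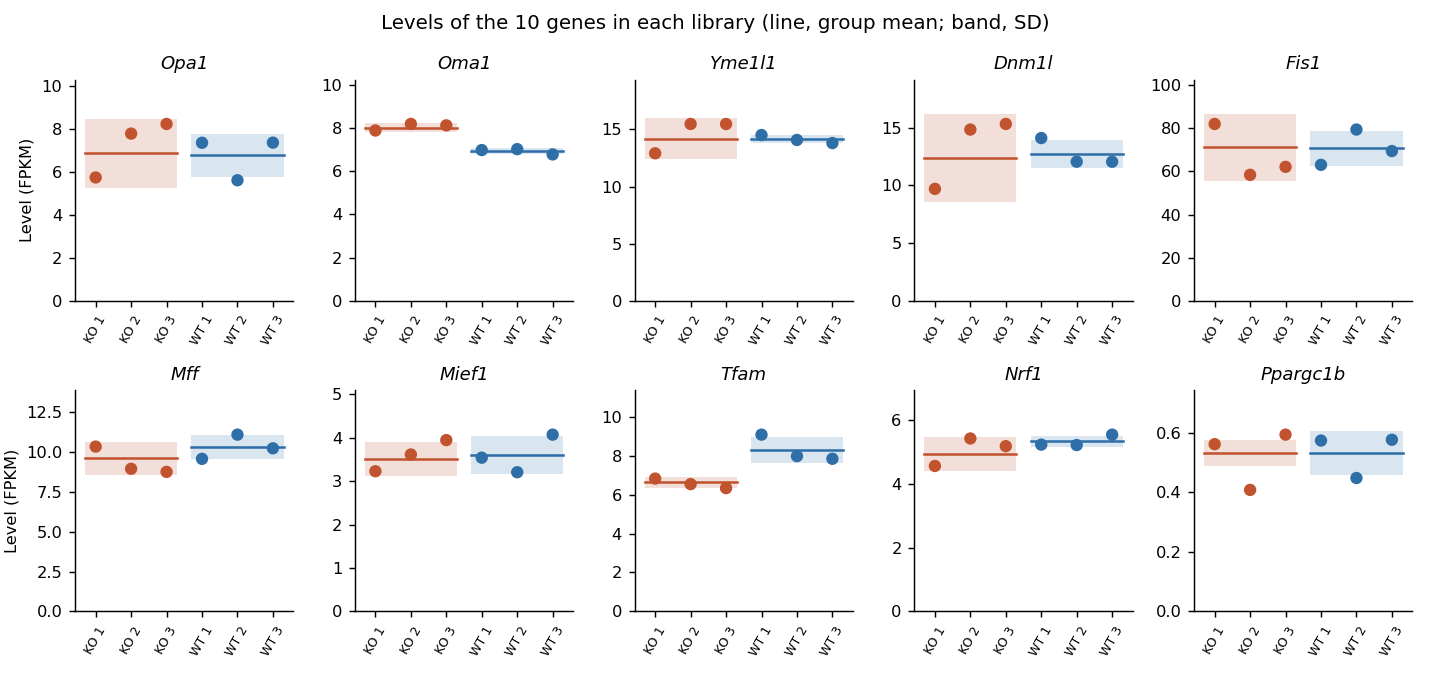
Level of each of the 10 genes in FPKM (y axes, each from 0) in KO replicates 1 to 3 and wildtype (WT) replicates 1 to 3; lines are group means and bands the SD, with KO replicates 2 and 3 averaged to 1 sample. Oma1 lies at 7.88 to 8.18 FPKM in KO and 6.77 to 7.01 FPKM in wildtype, and Tfam at 6.33 to 6.82 FPKM in KO and 7.84 to 9.08 FPKM in wildtype, while the groups overlap for the other genes.

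To ask whether the KO altered these genes, the counts of all 15373 tested genes were compared by edgeR's quasi-likelihood test. None of the 10 members passed an adjusted p-value of 0.05 (lowest 0.406), and 0 had an unadjusted p-value under 0.05 by edgeR, by DESeq2 or by limma. Over all tested genes 0 (0%) passed the adjusted and 2106 (13.7%) the unadjusted threshold by edgeR, DESeq2 called 880 of the 14769 genes to which it gave an adjusted p (5.96%), and limma called 0. Log2 differences (KO minus wildtype) of the members ran from -0.30 for Tfam to 0.23 for Oma1, 5 above and 5 below 0, with a median of -0.0011 against -0.016 over all tested genes. The approximate 95% intervals of all 10 lay within a log2 difference of 1 in either direction, the widest being that of Ppargc1b, from -0.66 to 0.70. A change of 2-fold in any member was therefore outside its interval. With the 6 libraries as labelled, which counts KO replicates 2 and 3 as separate, 570 genes (3.71%) passed the adjusted threshold, and 0 of the members. In that fit Tfam alone, 1 of the 10, fell under 0.05 before adjustment, against 3408 of all 15373 tested genes. The FPKM values did not overlap between the groups for 2 of the 10 members, Oma1 and Tfam, a share below the 28.6% of all tested genes.

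**Figure D2:**
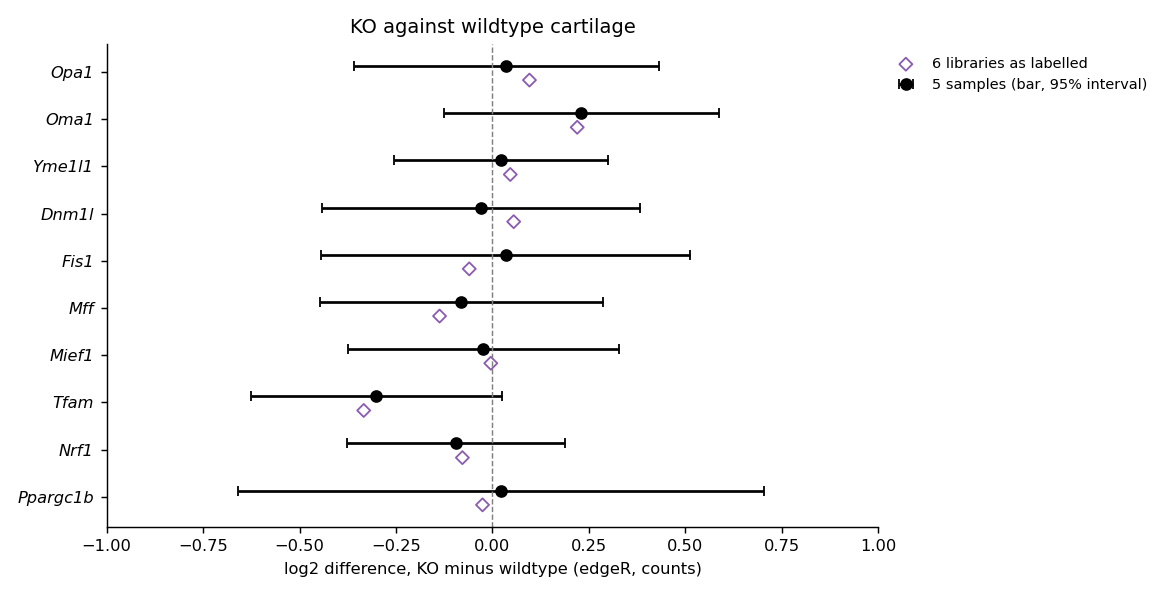
Log2 difference between KO and wildtype for each gene (x axis, from edgeR on counts), with black points and bars for the 5 samples and their approximate 95% intervals, and open diamonds for the 6 libraries as labelled. Every interval includes 0, and the points farthest from 0 are those of Tfam (-0.30) and Oma1 (0.23).

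Of the biogenesis genes, Tfam was lower in every KO library, but no member of this group passed the test. Tfam (ENSMUSG00000003923, chromosome 10, 71225464 to 71238280, minus strand, GRCm38) was at 6.82, 6.54 and 6.33 FPKM in KO replicates 1, 2 and 3. In wildtype replicates 1, 2 and 3 it was at 9.08, 7.97 and 7.84 FPKM. All KO libraries thus lay below all wildtype libraries, with wildtype replicate 1 the highest. The KO mean was 6.63 ± 0.274 FPKM (SD, n = 2), against 8.30 ± 0.680 FPKM (SD, n = 3) for wildtype. The log2 difference was -0.30 (SE 0.14, interval -0.63 to 0.02), with an adjusted p of 0.406 (edgeR), so the difference did not pass. With the 6 libraries as labelled it was -0.33 (SE 0.11, unadjusted p 0.0166, edgeR adjusted p 0.126). It was -0.40 without KO replicate 1 and -0.20 without KO replicates 2 and 3. Nrf1 (ENSMUSG00000058440, chromosome 6, 30047988 to 30153458, plus strand) was at 4.55, 5.41 and 5.17 FPKM in KO and at 5.22, 5.21 and 5.53 FPKM in wildtype. The KO range enclosed the lower wildtype values, and KO replicate 1 was the lowest library. The log2 difference was -0.10 (SE 0.12, edgeR adjusted p 0.822). Ppargc1b (ENSMUSG00000033871, chromosome 18) was at 0.562, 0.408 and 0.594 FPKM in KO and at 0.574, 0.448 and 0.577 FPKM in wildtype, from 108 to 167 counts per library. Each group held 1 low library, and the log2 difference was 0.02 (SE 0.29), with an adjusted p of 0.990 (edgeR). The better known coactivator Ppargc1a had a mean level under 0.5 FPKM and was not tested.

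At the inner membrane, Oma1 was higher in every KO library, Yme1l1 and Opa1 overlapped between the groups, and none of the 3 passed the test. Oma1 (ENSMUSG00000035069, chromosome 4, 103313812 to 103366443, plus strand), a stress-activated metalloprotease, was at 7.88, 8.18 and 8.11 FPKM in KO replicates 1, 2 and 3. In wildtype replicates 1, 2 and 3 it was at 6.97, 7.01 and 6.77 FPKM. All KO libraries lay above all wildtype libraries, and KO replicate 1, which lay beside wildtype on the first principal component, lay with the other KO libraries here. The means were 8.01 ± 0.191 FPKM (SD, n = 2) and 6.92 ± 0.130 FPKM (SD, n = 3), with a log2 difference of 0.23 (SE 0.15, interval -0.13 to 0.59) and an adjusted p of 0.592 (edgeR). Thus the groups were apart in all libraries, but the difference did not pass the test. Yme1l1 (ENSMUSG00000026775, chromosome 2, 23156369 to 23199260, plus strand), an ATP-dependent protease of the inner membrane, was at 12.9, 15.5 and 15.5 FPKM in KO and at 14.5, 14.1 and 13.8 FPKM in wildtype. The wildtype libraries fell between the KO libraries, and the log2 difference was 0.02 (SE 0.12, interval -0.26 to 0.30), the narrowest interval among the members. Opa1 (ENSMUSG00000038084, chromosome 16, 29579334 to 29654884, plus strand) was at 5.75, 7.80 and 8.25 FPKM in KO and at 7.37, 5.62 and 7.38 FPKM in wildtype. KO replicate 1 and wildtype replicate 2 were the low libraries, the groups overlapped, and the log2 difference was 0.04 (SE 0.17, edgeR adjusted p 0.969).

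The ratio of transcripts within a library does not depend on how libraries are scaled, so the pair of Opa1 proteases and the pair of dynamins were compared in this way. In KO replicates 1, 2 and 3 the ratio of Oma1 to Yme1l1 was 0.610, 0.528 and 0.524, against 0.480, 0.498 and 0.490 in the wildtype replicates. It was higher in 3 of 3 KO libraries than in any wildtype library. On the log2 scale the ratio was -0.82 ± 0.15 (SD, n = 2) in KO and -1.03 ± 0.026 (SD, n = 3) in wildtype. The difference was 0.21, with p = 0.2 by an exact two-sided permutation test. That is the smallest p this test, which doubles the one-sided p, can give for 2 against 3 samples. Without KO replicate 1 the difference was 0.10, and with it as the sole KO library 0.32. The ratio of Dnm1l to Opa1 was 1.68, 1.90 and 1.86 in KO and 1.91, 2.14 and 1.63 in wildtype. The KO values lay within the wildtype range, with a log2 difference of -0.083 (p = 0.8, exact two-sided permutation test). Adjusted over the 2 ratios, the p-values were 0.4 and 0.8.

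**Figure D3:**
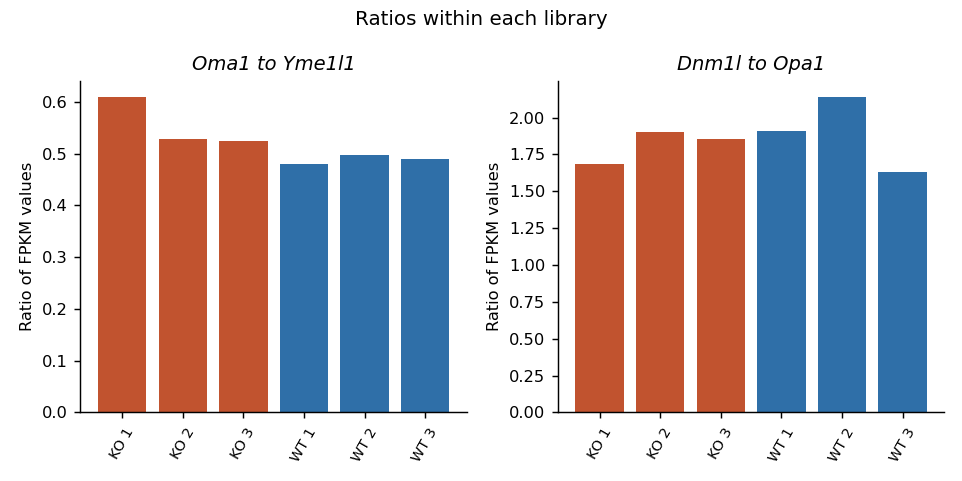
Ratio of FPKM values (y axes, from 0) of Oma1 to Yme1l1 and of Dnm1l to Opa1 in each library, with KO bars in orange and wildtype (WT) bars in blue. The Oma1 to Yme1l1 ratio is at 0.524 to 0.610 in KO and 0.480 to 0.498 in wildtype, and the Dnm1l to Opa1 ratio overlaps between the groups.

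The fission genes differed more within the KO group than between the groups. Dnm1l (ENSMUSG00000022789, chromosome 16, 16312230 to 16358959, minus strand) was at 9.69, 14.8 and 15.3 FPKM in KO and at 14.1, 12.0 and 12.0 FPKM in wildtype. The KO libraries held both the lowest and the highest values, and the log2 difference was -0.03 (SE 0.17, edgeR adjusted p 0.978). It became 0.21 without KO replicate 1 and -0.31 without the pair of KO replicates 2 and 3. Fis1 (ENSMUSG00000019054, chromosome 5, 136953275 to 136966232, plus strand) was at 82.1, 58.5 and 62.2 FPKM in KO and at 63.1, 79.5 and 69.5 FPKM in wildtype. Here KO replicate 1 was the highest library and KO replicates 2 and 3 were the lowest. The log2 difference was 0.03 (SE 0.20, edgeR adjusted p 0.977), and it was -0.27 without KO replicate 1 and 0.29 without KO replicates 2 and 3. Mff (ENSMUSG00000026150, chromosome 1, 82724890 to 82752390, plus strand) was at 10.3, 8.95 and 8.76 FPKM in KO and at 9.58, 11.1 and 10.2 FPKM in wildtype. Its pattern followed that of Fis1, with KO replicates 2 and 3 the lowest libraries and a log2 difference of -0.08 (SE 0.16, edgeR adjusted p 0.901), which was -0.26 without KO replicate 1. Mief1 (ENSMUSG00000022412, chromosome 15, 80234018 to 80253371, plus strand) was at 3.23, 3.62 and 3.95 FPKM in KO and at 3.54, 3.21 and 4.07 FPKM in wildtype. The groups covered nearly the same range, and the log2 difference was -0.02 (SE 0.15).

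The spread within the KO group was then described on TMM-scaled log2 CPM. There each count, with a small prior count added, is divided by its library's total times a TMM scaling factor. KO replicate 1 minus the mean of KO replicates 2 and 3 was 0.56 for Fis1, 0.34 for Mff and 0.30 for Ppargc1b, and it was -0.53 for Dnm1l and -0.37 for Opa1. For the members with the smallest unadjusted p-values it was 0.19 for Tfam and 0.06 for Oma1. Fis1 ranked the libraries from KO replicate 1 through wildtype replicates 2, 3 and 1 to KO replicates 3 and 2, nearly the reverse of the order of Dnm1l. Summed chondrocyte markers also placed KO replicate 1 and wildtype replicate 2 highest, at 1436 and 829.7 FPKM. They were between 608 and 755 FPKM elsewhere. Prg4 made up most of this sum, with 1034 FPKM in KO replicate 1. Col2a1, Col11a1 and Matn3 were not highest in KO replicate 1, whereas the other genes of the list were. Col2a1 was at 16.0 FPKM there and at 21.3 FPKM in wildtype replicate 1. Summed skeletal muscle markers separated the KO libraries more, with 192, 4.65 and 3.77 FPKM in KO replicates 1, 2 and 3, and they were highest in wildtype replicate 3 (346 FPKM). The share of counts in the 10 most abundant genes was 15.3%, 8.46% and 8.50% in the KO and 11.3%, 14.1% and 13.3% in the wildtype libraries, the same order of libraries as Fis1. The part of these shifts in the levels of Fis1 and Dnm1l was not tested.

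**Figure D4:**
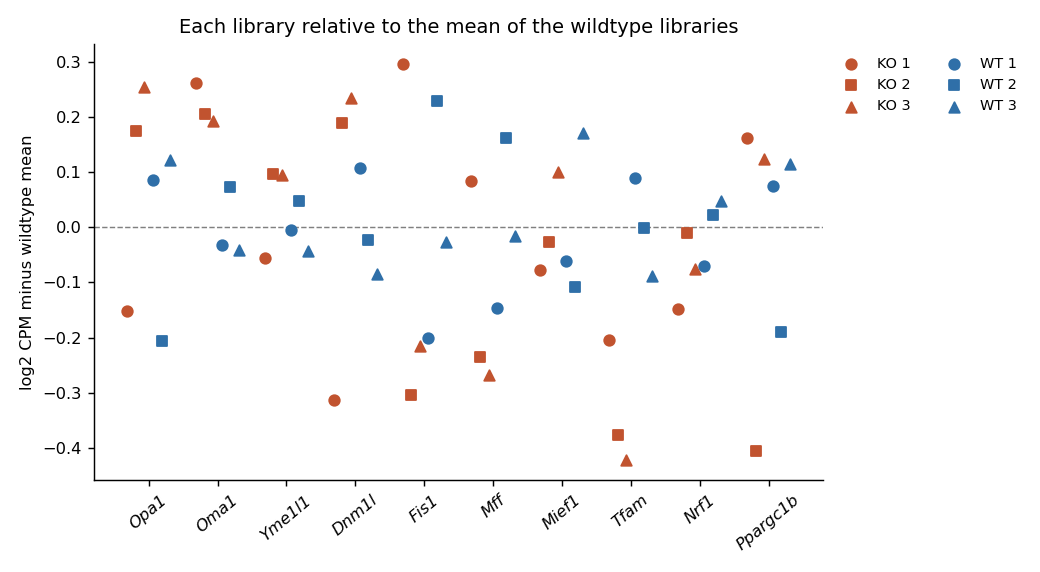
TMM-scaled log2 CPM of each gene in each library minus the mean of the 3 wildtype libraries (y axis), with KO in orange, wildtype (WT) in blue and the marker shape giving the replicate number. KO replicate 1 (orange circle) lies opposite KO replicates 2 and 3 for Dnm1l, Fis1, Mff, Opa1 and, by less, Yme1l1. The KO libraries lie together for Oma1 and on 1 side of 0 for Tfam.

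The related genes of each process were finally read from 5 lists, in which 62 of 69 genes that are not members were tested. Of the 62, 34 lay above and 28 below 0, with a median log2 difference of 0.01. By edgeR 0 passed the adjusted threshold and 5 (8.06%) the unadjusted one, 1 higher and 4 lower in KO, against 13.7% of all tested genes. Limma called 0 of the 62, and DESeq2 called 3 (4.84%), a share below its 5.96% over all genes. The groups did not overlap in 17 of the 62 (27.4%), close to the 28.6% of all tested genes. The higher one was Dnm2, a dynamin that can act in membrane scission, named after its values were seen, with a log2 difference of 0.35 (SE 0.15, edgeR adjusted p 0.364) and overlapping groups. The other 4 were Spire1, Mtfr1, Marchf5 and Pparg.

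Among 17 tested fission genes, 7 lay above and 10 below 0, with a median log2 difference of -0.03. By edgeR 1 higher and 3 lower genes of the 17 had an unadjusted p-value under 0.05, against 13.7% of all tested genes. The 3 with the smallest unadjusted p-values had log2 differences below 0. Spire1, an actin nucleator that acts at sites of division, was at 8.11, 6.47 and 6.62 FPKM in KO and at 12.2, 10.6 and 13.9 FPKM in wildtype. Its log2 difference was -0.72 (SE 0.17, edgeR adjusted p 0.175). Mtfr1, a mitochondrial fission regulator, was at 13.1, 12.3 and 12.5 FPKM in KO and at 18.5, 17.6 and 21.5 FPKM in wildtype, a log2 difference of -0.57 (SE 0.14, edgeR adjusted p 0.175). Marchf5, an outer-membrane ubiquitin ligase that acts on fission proteins, was at 30.7, 29.3 and 26.9 FPKM in KO and at 42.5, 37.6 and 45.9 FPKM in wildtype, a log2 difference of -0.49 (SE 0.14, edgeR adjusted p 0.202). In these 3 genes, which the rule for naming picked by p-value, all KO libraries lay below all wildtype libraries. None passed in the 5 samples by edgeR, whereas the same 3 genes passed with the 6 libraries as labelled (adjusted p-values of 0.0399, 0.0369 and 0.0472) and with DESeq2. They were the 3 of 62 (4.84%) called in either fit, against 3.71% and 5.96% of all genes, shares near the background for all lists together. All 3 came from the fission list, which held 13 tested genes that are not members. Over 16 alternatives they stayed below 0, from -0.94 to -0.51 for Spire1, from -0.66 to -0.47 for Mtfr1 and from -0.62 to -0.37 for Marchf5, with adjusted p-values up to 0.487, 0.496 and 0.554.

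The inner-membrane list held 18 tested genes, 7 above and 11 below 0, with a median log2 difference of -0.03. Of these 18, 0 had an unadjusted p-value under 0.05 by edgeR, against 13.7% of all tested genes. Chchd3 and Apoo, subunits of the MICOS complex of crista junctions, had log2 differences of -0.26 (SE 0.13) and -0.37 (SE 0.20), and the prohibitin Phb had -0.19 (SE 0.13), with adjusted p-values of 0.433, 0.497 and 0.618 by edgeR. Of the 19 genes for transcription and replication of mitochondrial DNA, all tested, 0 had an unadjusted p-value under 0.05, against the same 13.7%. In this list 13 lay above and 6 below 0, with a median of 0.06. Tfam thus lay below the median of its own list. The DNA polymerase gamma subunits Polg and Polg2 had log2 differences of 0.18 (SE 0.12) and 0.25 (SE 0.18), and the mitochondrial termination factor family member Mterf2 had -0.41 (SE 0.26), with adjusted p-values of 0.570, 0.639 and 0.581 by edgeR.

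Of the biogenesis regulators, 16 of 21 were tested, 10 above and 6 below 0, with a median log2 difference of 0.03. Pparg, the nuclear receptor of adipocyte differentiation, was at 3.65, 2.68 and 2.78 FPKM in KO and at 6.33, 4.02 and 6.46 FPKM in wildtype. Its log2 difference was -0.78 (SE 0.26, unadjusted p 0.0209, edgeR adjusted p 0.265), and the summed adipocyte markers were lower in the same libraries, as given above, a part that was not tested. Ppard, a nuclear receptor of lipid oxidation, had a log2 difference of 0.44 (SE 0.21) and the deacetylase Sirt1 -0.26 (SE 0.13), with adjusted p-values of 0.432 and 0.447 by edgeR. For outer-membrane fusion, the mitofusins were at 9.70 FPKM for Mfn2 and 4.45 FPKM for Mfn1 in wildtype, with log2 differences of 0.27 (SE 0.14) and 0.0037 (SE 0.14) and adjusted p-values of 0.466 and 0.996 by edgeR. Mfn2 was at 0.42 without KO replicate 1 and at 0.11 without KO replicates 2 and 3, and Ppard at 0.19 without the latter.

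**Figure D5:**
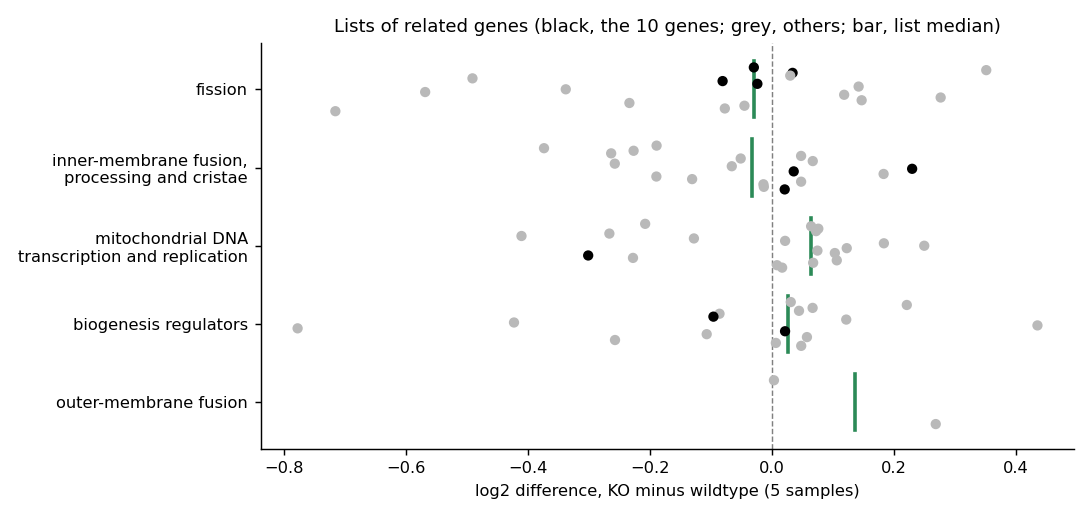
Log2 difference between KO and wildtype in the 5 samples (x axis) for the tested genes of 5 lists (y axis), with the 10 genes in black, other genes in grey and the list median as a green bar. The list medians lie from -0.03 to 0.14, and the grey points farthest to the left are Pparg (-0.78), Spire1 (-0.72), Mtfr1 (-0.57) and Marchf5 (-0.49).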

How the data were processed

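RNA sequencing of cartilage, with molecular identifiers and paired reads of 150 bp, was performed by the authors. A single table with counts and FPKM values per gene and library was deposited, and groups and replicate numbers came from the titles. The submitters' processing notes name cutadapt 1.9, HISAT2 2.0.4, UMI-tools, StringTie 1.3.4d, DESeq2 and edgeR without their roles. FPKM values were scaled by the authors within each library. The deposited counts were whole but behave as estimated counts, since low values piled up at 4 (6596 values, against 4170 at 3 and 2332 at 5). Whether counting used strand was not given in the sources used here, and genes overlapping the members had few counts. Positions follow GRCm38. The identity of the knocked-out gene is not reported here.

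KO replicates 2 and 3 were merged (mean count, rounded). Genes averaging 0.5 FPKM or more were tested by edgeR 4.0.16 (R 4.3.3, TMM scaling, quasi-likelihood test, Benjamini-Hochberg adjustment over 15373 genes), after tests on simulated data. Standard errors were the log2 difference divided by the root of F, and intervals used the t quantile of the fit. The study describes its samples as independent, but the labels tie no library to an animal, so p-values measure only the spread between these samples. Alternatives were DESeq2 1.42.0, limma 3.58.1 on log2(FPKM + 1) or log2(FPKM + 0.1), median-of-ratios scaling, other filters, a replicate block, libraries left out and, added after seeing the data, counts divided by 4. Named genes were the 10 members and, from each list, up to 3 others with the smallest unadjusted p-values. Members and lists were chosen with earlier results of these data known.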

Additional observations from a re-analysis of the deposited data

How the results depend on the processing

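No member passed the adjusted threshold under any of the 16 alternatives (lowest adjusted p 0.126, for Tfam with the 6 libraries as labelled), and Tfam, Oma1 and Nrf1 kept their direction in all of them. Tfam ranged from -0.40 to -0.20 and Oma1 from 0.18 to 0.27. Where each group kept more than 1 sample, the number of members with an unadjusted p-value under 0.05 was 0, with these exceptions. It was 1, Tfam, with the 6 libraries as labelled, with a minimum of 5 FPKM and with the replicate block. In those fits 3408 of 15373, 1291 of 7614 and 2809 of 15373 tested genes were under the same limit, in that order. Over all tested genes, the adjusted threshold was passed by 570 with the 6 libraries as labelled, 880 with DESeq2, 21 without a filter, 9 without KO replicates 2 and 3, and 0 to 352 on leaving out single libraries, the 352 without KO replicate 1. Where 1 KO sample was left, it was assumed to vary like wildtype. The causes were not tested.

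The other 7 members changed sign somewhere. With the 6 libraries as labelled Dnm1l was at 0.055, Fis1 at -0.060 and Ppargc1b at -0.026. With the replicate block on those libraries they were at 0.038, -0.075 and -0.040, Tfam again had an unadjusted p-value under 0.05, and no other call of a member changed. Same-numbered libraries did not deviate together (correlations of -0.21, -0.18 and 0.0014), and pairs of unlike number ranged from -0.20 to 0.22. With 3 libraries per group this check cannot decide whether the numbers pair the samples. The study's methods name littermates for its age-related model, but no label ties a library to a litter. With a minimum of 5 FPKM, Opa1 was at -0.014, Yme1l1 at -0.026 and Fis1 at -0.0072, and Mief1 and Ppargc1b were not tested. Without a filter Dnm1l was at 0.013 and Mief1 at 0.014. By limma, Fis1 was at -0.00011 and -0.00025 with a pseudocount of 1 and 0.1 FPKM, and Ppargc1b at -0.00059 with a pseudocount of 1 FPKM; Mfn1, outside the 10, was at -0.012 and -0.015. Without KO replicates 2 and 3, Opa1 was at -0.15, Yme1l1 at -0.050, Mff at 0.083 and Mfn1 at -0.043. When libraries were left out singly, Opa1 ranged from -0.060 to 0.21, Dnm1l from -0.056 to 0.21, Fis1 from -0.27 to 0.16, Mff from -0.26 to 0.0048, Mief1 from -0.077 to 0.081, Ppargc1b from -0.13 to 0.14 and Mfn1 from -0.019 to 0.054. The log2 ratio of Dnm1l to Opa1 ranged from -0.19 to 0.010 when libraries were left out singly, and that of Oma1 to Yme1l1 kept its direction in all settings, with 0.18 for the replicate block, 0.10 without KO replicate 1, 0.32 without KO replicates 2 and 3, and 0.20 to 0.22 without any other library. Without wildtype replicate 2, Phb was at -0.12 and Polg2 at 0.17, and without KO replicates 2 and 3 Mterf2 was at -0.27.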
